A study of Mus musculus with 24 samples.

Results

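Colonocytes from mice with a Vil-cre-mediated deletion of Smarcad1 in the intestinal epithelium (KO) were compared with those from wild type (WT) mice by mRNA-seq. The comparison rested on 6 of the 24 libraries of the study, 3 KO and 3 WT. The other libraries came from the small intestine of the same genotypes and held stem cells (ISC), absorptive enterocytes (AE) and the dividing transit amplifying cells (TA). Colonocytes (CO) were taken from colon crypts and flow-sorted as Epcam-high cells negative for CD31, CD45 and the dead cell stain DAPI, with 75000 to 100000 cells per sample. Both genotypes are labelled as strain C57BL/6 Lgr5-GFP, so by the labels that allele was shared. The animals were males, KO mice carried loxP-flanked Smarcad1 alleles together with the Vil-cre transgene, and their age is not given in the sources used here. Vil-cre acts across the epithelium of both small intestine and colon, so the deletion was not limited to colonocytes.

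The deposited lists gave values for 82 different genes, of which 56 were listed for colonocytes (false discovery rate under 0.1 in the DESeq2 comparison of KO with WT). The other 26 were listed only for another cell type. Each value was the authors' mean of a group on a log2 scale, normalised to total reads. The means carry no error, values per library were not analysed here and sequencing depth is unknown. The differences below are therefore descriptions without a test. Differences are KO minus WT, and 1 log2 unit is 1 doubling. All 82 genes were chosen by the authors' test in at least 1 cell type, so no count below can be read as a share of expressed genes. Listing by a test also favours large differences. The lists held values for 1 of 20 colonocyte markers, Slc9a2, which had 7.30 in WT colonocytes and 7.41 in WT AE. The share of absorptive cells could therefore not be checked. The sort took epithelial cells in general, and the goblet cell peptide Spink4 had 8.95 in WT colonocytes. The name colonocytes stands here for the whole sort. The lists also held 1 of 30 immune cell markers, Cd244, which was at the lowest value of its column in both colonocyte groups. They held none of 15 endothelial and stromal or of 12 enteroendocrine and tuft cell markers.

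Smarcad1 is an ATP-dependent chromatin remodeller that slides or exchanges nucleosomes. Colonocytes in the strict sense are the absorptive cells of the large intestine. They arise from crypt stem cells kept by Wnt signals, carry a brush border, take up salt, water and short chain fatty acids, and answer microbial and interferon signals. Interferons act through ISGF3 and interferon regulatory factors, which bind the interferon-stimulated response element (ISRE), while metallothionein genes answer zinc through the metal response element (MRE) and its factor Mtf1.

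Promoters of the interferon and metal genes are shown because several of these genes were among the largest differences. The sequences are those of RefSeq on GRCm38.p6 and hold the 250 bases before each start site, 5′ to 3′ on the strand of the gene. Capitals mark matches on either strand to the ISRE core, GAAA and again GAAA with any 2 bases between, or in Mt1 to the MRE cores TGCACNC and TGCGCNC. The first 3 promoters below are those of all listed colonocyte genes with an ISRE core match, among 41 that had a promoter entry. Ifit1, listed only for AE, and Irf7, without a match, belong with Rsad2 and Tmem140 to the interferon-stimulated genes, and Plcd3 is not on that list.
Rsad2 chr12:26456453-26456702, minus strand: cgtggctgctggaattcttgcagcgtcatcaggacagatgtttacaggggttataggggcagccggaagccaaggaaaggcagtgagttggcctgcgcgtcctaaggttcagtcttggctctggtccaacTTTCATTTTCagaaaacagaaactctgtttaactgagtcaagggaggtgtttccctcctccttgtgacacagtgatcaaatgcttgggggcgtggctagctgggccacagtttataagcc
Tmem140 chr6:34862896-34863145, plus strand: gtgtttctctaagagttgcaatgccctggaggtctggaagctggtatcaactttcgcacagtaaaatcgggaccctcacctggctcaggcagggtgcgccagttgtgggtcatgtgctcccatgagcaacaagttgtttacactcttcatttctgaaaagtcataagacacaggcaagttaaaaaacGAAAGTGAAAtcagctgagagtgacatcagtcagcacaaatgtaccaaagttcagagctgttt
Plcd3 chr11:103101659-103101908, minus strand: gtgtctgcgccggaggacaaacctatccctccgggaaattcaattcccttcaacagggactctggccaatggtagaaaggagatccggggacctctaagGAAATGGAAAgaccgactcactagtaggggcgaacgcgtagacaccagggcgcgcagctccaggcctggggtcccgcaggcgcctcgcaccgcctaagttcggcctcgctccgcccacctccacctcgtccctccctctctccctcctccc
Ifit1 chr19:34640639-34640888, plus strand: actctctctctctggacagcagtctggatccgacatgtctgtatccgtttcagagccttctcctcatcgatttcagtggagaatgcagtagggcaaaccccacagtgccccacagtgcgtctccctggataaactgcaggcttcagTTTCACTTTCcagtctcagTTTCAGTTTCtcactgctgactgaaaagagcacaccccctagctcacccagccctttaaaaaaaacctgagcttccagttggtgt
Irf7 chr7:141266425-141266674, minus strand: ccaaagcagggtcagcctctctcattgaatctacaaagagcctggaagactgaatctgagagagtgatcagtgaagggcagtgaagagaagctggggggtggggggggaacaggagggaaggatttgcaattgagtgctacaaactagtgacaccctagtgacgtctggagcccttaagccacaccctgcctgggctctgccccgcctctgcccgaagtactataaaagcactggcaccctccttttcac
Mt1 chr8:94178839-94179088, plus strand: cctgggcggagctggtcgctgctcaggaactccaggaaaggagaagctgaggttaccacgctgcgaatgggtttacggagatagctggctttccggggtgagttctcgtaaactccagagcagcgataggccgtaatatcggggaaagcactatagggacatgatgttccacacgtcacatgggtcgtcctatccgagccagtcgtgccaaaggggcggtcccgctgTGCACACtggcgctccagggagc

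The ISRE core match began 120 bases before the start in Rsad2, 63 in Tmem140 and 151 in Plcd3. Ifit1 held 2 matches, 104 and 85 bases before its start. The core was found in 2.98% of 32851 promoters. By gene it was found in 3 of the 41 listed colonocyte genes (7.32%) and in 3.46% of all 27025 genes. The MRE cores were far more common, in 21.4% of promoters, and were found in 10 of the 41 genes (24.4%) against 23.8% of all genes. Mt1 held 1 match, 23 bases before its start. A longer window that added the 50 bases after the start was searched once these matches had been seen. It gave Mt1 2 further matches, 2 and 20 bases after the start. In that window the ISRE core was found in the same number of listed genes, 3, and in 3.99% of all genes, and the MRE cores in 12 listed genes (29.3%) and in 28.2% of all genes. These are matches of letters only. Neither window says whether a factor binds there.

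Smarcad1 itself (ENSMUSG00000029920, chromosome 6 from 65042583 to 65116061, plus strand of GRCm38) had a log2 value of 5.44 in WT and 4.57 in KO colonocytes. The difference was -0.87, so KO colonocytes kept 54.8% of the WT level. Only some exons lie between the loxP sites, and reads over the other exons of a shortened transcript still count, so the gene value does not measure how complete the deletion was. Smarcad1 was one of 17 listed genes that were lower by less than 1.

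Most listed colonocyte genes were lower in KO. Of the 56, 44 were lower and 12 higher, which are 53.7% and 14.6% of the 82 genes and are fixed by the listing. The 44 lower genes had differences from -3.57 to -0.68 with a median of -1.26. The 12 higher genes had differences from 1.08 to 5.79 with a median of 2.36. That median was the larger in size, but the higher genes started from a lower median WT value, 2.23 against 5.96. The 13 lower genes with a WT value under 5 had a median difference of -2.15. A weakly expressed gene needs a larger difference to be listed, so the contrast of the medians is in part set by the selection. A difference of at least 1 was found in 27 of the lower and in all 12 of the higher genes, and in 37.8% and 15.9% of the 82 genes. For 43 of the 44 lower genes the colonocyte list was the only one that held them, the exception being Smarcad1. Among the 12 higher genes 6 were in the colonocyte list alone.

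**Figure D1:**
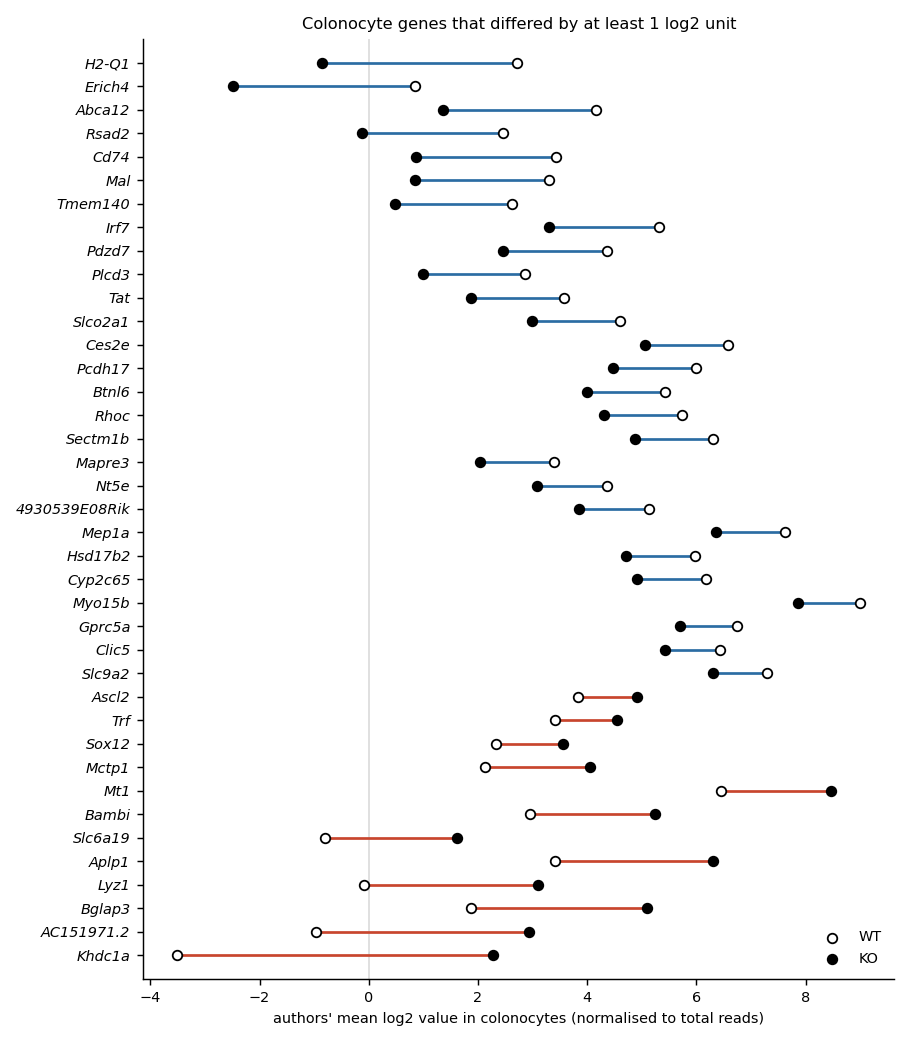
The authors' mean log2 value in WT (open circles) and KO (filled circles) colonocytes is plotted on the x axis for the 39 listed genes with a difference of at least 1, ordered by difference, with blue lines for lower and red lines for higher in KO. The 27 lower genes run from H2-Q1 at the top, and 4 of the 12 higher genes start from a WT value below 0.

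Interferon-stimulated genes are described first. Of 47 on the list used here 5 had values and 3 were listed for colonocytes, all 3 lower. Since 44 of all 56 listed genes were lower, a small group that is all lower is close to the share over the whole list, and such counts below say nothing particular to a group. Rsad2, which encodes the antiviral enzyme viperin, had a log2 value of 2.47 in WT and -0.13 in KO colonocytes, a difference of -2.59. Tmem140, an interferon-inducible membrane protein, went from 2.63 to 0.49, a difference of -2.15. Of the 50-base sequences of Tmem140 35.9% also occur in other genes, chiefly Cyren, which overlaps it on the opposite strand, so its value is uncertain. Irf7, the transcription factor that amplifies type I interferon production, had 5.31 in WT and 3.31 in KO, a difference of -2.00. Irf7 had the highest WT level of the 3 per kilobase of exon too, at a log2 value of 3.40 against 0.35 for Rsad2 and 0.08 for Tmem140.

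Ifit1 and Slfn4 belong to the same group but were not listed for colonocytes. Ifit1, which binds foreign RNA caps, had 2.51 in WT and 0.15 in KO, a difference of -2.36 that lay within the range of the 3 listed genes. With a pseudocount of 1 on the linear scale Rsad2, Ifit1 and Tmem140 differed by -1.77, -1.66 and -1.58. Irf7, the strongest of them in WT, then had the largest difference, -1.90. Slfn4, a schlafen of myeloid cells, differed by -0.46 in colonocytes but by 1.34 in AE and 1.47 in TA. In ISC, where 73.2% of all 82 genes were above 0, Rsad2 was higher in KO by 3.04, from -2.69 to 0.35. Ifit1 was higher there by 1.91 from a WT value of -0.91, Irf7 by 0.79 and Tmem140 by 0.15. None of these genes was listed for ISC, and no contrast between cell types was tested. In AE, where 59.8% of the 82 were below 0, Rsad2, Ifit1, Irf7 and Tmem140 differed by -0.40, -0.87, -0.17 and -0.58. In TA they differed by 0.96, -0.36, 0.37 and 0.15. ISC and TA sorts held as few as 1000 cells, fewer than any colonocyte sort.

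Of 32 antigen presentation genes 2 had values, and both were lower, beside 44 of all 56 listed genes. H2-Q1 (ENSMUSG00000079507, chromosome 17 from 35320405 to 35325099, plus strand), a class Ib MHC gene, went from 2.71 to -0.86. The difference of -3.57, the largest fall as deposited, left 8.41% of the WT level, but with a pseudocount of 1 on the linear scale it became -2.28, smaller than the -2.41 of Abca12. Of its 50-base sequences 15.0% also occur in another gene, chiefly its neighbour H2-Q2, so its value is uncertain. Cd74, the invariant chain of MHC class II, went from 3.42 to 0.87, a difference of -2.55. Cd74 is expressed by antigen-presenting immune cells as well as by epithelium. Its WT value was 7.79 in AE, far above that in colonocytes, and its difference there was -1.64.

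**Figure D2:**
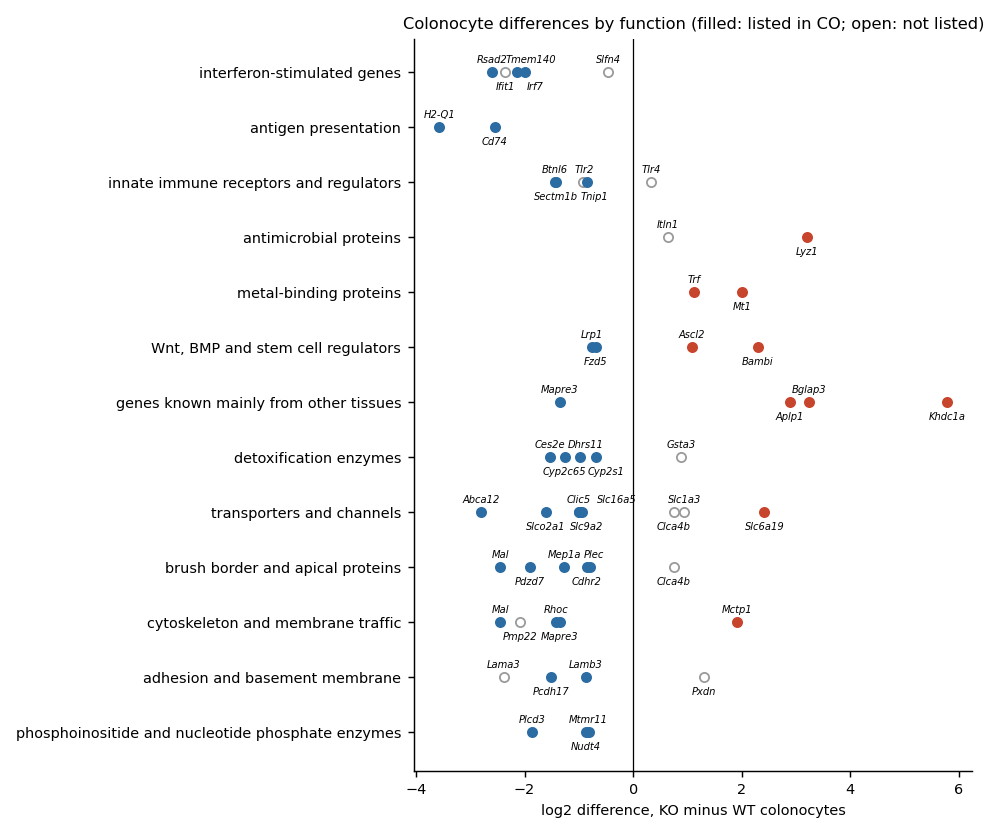
Each point is a gene's log2 difference, KO minus WT colonocytes, in rows by functional list, filled where the gene was listed for colonocytes (blue lower, red higher) and open where it was listed only for another cell type. Blue points outnumber red ones 44 to 12 over the whole list, and among those drawn the metal-binding genes Trf and Mt1 and the antimicrobial gene Lyz1 lie right of 0.

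Other immune genes differed less. Of 26 innate immune receptors and regulators, 6 had values and 3 were listed, all lower, as were 44 of the 56 listed genes. Btnl6, a butyrophilin-like protein of the family through which gut epithelium shapes intraepithelial T cells, differed by -1.44, from 5.43 to 3.99. Sectm1b, a secreted and transmembrane protein, differed by -1.42 from a WT value of 6.31. Tnip1, an inhibitor of NF-κB signalling, differed by -0.86. Among the unlisted members Tlr2, the receptor of bacterial lipopeptides, differed by -0.93 and Tlr4, the receptor of lipopolysaccharide, by 0.33. Tlr4 was already well expressed in WT colonocytes, with a value of 4.41 against -4.25 in WT AE, and its KO difference there was 3.31.

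Lyz1 was the only listed gene of 21 antimicrobial proteins, of which 2 had values, and it was higher. It encodes the lysozyme of Paneth cells, a small intestinal cell type that the mouse colon normally lacks. Its value was -0.09 in WT and 3.11 in KO colonocytes, a difference of 3.20. Its KO value in colonocytes was still below the WT values of 6.11 in AE and 9.69 in ISC. Itln1, an intelectin of Paneth and goblet cells, had 0.14 and 0.78, a difference of 0.64, and was not listed. Of 11 Paneth cell markers only these 2 had values, and of 12 goblet cell markers only Itln1 and Spink4, the latter with a difference of 0.26. Lyz1 shares 16.1% of its 50-base sequences with other genes, chiefly its paralog Lyz2, which is expressed by myeloid cells, so reads of the pair may be mixed.

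Of 16 metal-binding proteins Mt1 and Trf had values, and both were higher, beside 12 of all 56 listed genes. Mt1 (chromosome 8 from 94179082 to 94180327, plus strand), a metallothionein that buffers zinc and copper, had 6.46 in WT and 8.47 in KO. The difference of 2.01 is a level 4.01 times that of WT. It was the one gene of the 82 listed in all 4 cell types, with differences of 3.23 in AE, 1.36 in TA and 1.53 in ISC. Mt1 had the highest WT level of the 12 higher genes, and in KO its level per kilobase, 8.15, was above that of each of the other listed colonocyte genes. Trf encodes transferrin, the iron carrier of plasma, and went from 3.41 to 4.54. More than any other listed gene Trf shares sequence with another annotated gene, 59.4% of its 50-base sequences and chiefly with Gm20425, which overlaps it, so its value is uncertain.

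Wnt and BMP genes lay in both directions. The 4 members with values, of 30 on the list, were all listed. Ascl2, the Wnt-driven transcription factor of crypt stem cells, had 3.84 in WT and 4.92 in KO colonocytes, a difference of 1.08. Bambi, a decoy receptor that dampens BMP and TGF-β signals, went from 2.95 to 5.25, a difference of 2.30. Lower were Fzd5, a receptor of Wnt ligands, with -0.69 and the endocytic receptor Lrp1 with -0.77. Bambi was also higher in TA by 1.75 and in ISC by 2.29 and was listed there, whereas Ascl2 differed by only 0.17 in TA and by -0.45 in ISC, the stem cells in which its WT value was highest, 6.05. Sox12, a SoxC transcription factor, belongs to no list used here and differed by 1.23 in colonocytes.

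Several of the largest rises were in genes known mainly from other tissues. Of 12 on that list 4 had values, and 3 of them were higher, beside 12 of all 56 listed genes, the exception being Mapre3. The list was drawn up with earlier results known, so this count says nothing particular to such genes. Khdc1a (chromosome 1 from 21349641 to 21352200, plus strand), a KH-domain gene known from oocytes and early embryos, had -3.51 in WT and 2.28 in KO, a difference of 5.79. Since the WT value lay near the lowest of its column, -5.29, the size of this ratio is poorly fixed, and with the pseudocount of 1 it became 2.43. In TA and ISC Khdc1a differed by 4.33 and 4.37, and it was at the lowest value of both columns in AE. It shares 43.5% of its 50-base sequences, chiefly with Khdc1c.

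Bglap3, of the osteocalcin family of bone, had 1.87 and 5.10, a difference of 3.24, and it differed by 5.19, 5.94 and 4.69 in AE, TA and ISC. It shares 11.5% of its 50-base sequences, chiefly with Bglap2. Aplp1, an amyloid precursor-like protein of neurons, had 3.40 and 6.30, a difference of 2.89. The non-coding RNA AC151971.2 went from -0.97 to 2.94, a difference of 3.91, and differed by 2.64, 2.32 and 2.03 in AE, TA and ISC. These genes were thus higher in KO in each cell type with a value. Mctp1, a C2-domain membrane protein, was higher by 1.92 in colonocytes, from 2.13 to 4.04, and by 3.30 in ISC, where it started from -4.61.

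Of 40 enzymes of detoxification 5 had values and 4 were listed. These 4 were lower, with a median of -1.12, beside 44 of all 56 listed genes, whose lower genes had a median of -1.26. Ces2e, a carboxylesterase of the gut, went from 6.58 to 5.05. Cyp2c65, a cytochrome P450 of the colon, went from 6.18 to 4.92, with 20.6% of its 50-base sequences shared, chiefly with Cyp2c66. Dhrs11, a carbonyl reductase, differed by -0.98 and the cytochrome Cyp2s1 by -0.69. Gsta3, a glutathione transferase listed only for TA, had a difference of 0.88. Hsd17b2, which inactivates sex steroids, differed by -1.26 and Tat, the tyrosine aminotransferase, by -1.69, and neither is on that list.

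Slc25a20, the carnitine carrier of mitochondria, differed by -0.69 and Apob, the apolipoprotein of chylomicrons, by -0.88. Both differences were smaller than the median of the lower genes.

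Transporters held members in both directions. Of 47 on the list 8 had values, 5 of them lower and 3 higher. The 5 lower genes and 1 of the higher were listed, while Clca4b, a chloride channel accessory protein, and Slc1a3, a glutamate transporter, were not listed and differed by 0.74 and 0.94. Abca12, a lipid transporter best known from skin, had 4.17 in WT and 1.37 in KO, a difference of -2.80 that left 14.4% of the WT level. Slco2a1, the prostaglandin transporter, went from 4.59 to 2.99. Slc9a2, an apical sodium-proton exchanger, went from 7.30 to 6.30. Clic5, a chloride intracellular channel protein, went from 6.43 to 5.43, and Slc16a5, of the monocarboxylate transporter family, differed by -0.94. Slc6a19, the neutral amino acid transporter of the small intestinal brush border, was the listed higher one, from -0.81 to 1.62, a difference of 2.42 that became 1.37 with the pseudocount of 1. It is a gene of enterocytes, with a WT value of 9.43 in AE, and its colonocyte level in KO stayed far below that. Kcnk5, a potassium channel, had the smallest difference of all listed genes, -0.68.

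Of 33 brush border and apical genes 6 had values. The 5 that were listed were lower, beside 44 of all 56 listed genes, and the unlisted Clca4b had the positive difference given above. The listed Slc6a19, also of the brush border but placed among the transporters, was higher by 2.42. The single direction of the 5 thus depends on how the lists were drawn. Mal, a proteolipid of apical transport vesicles, went from 3.30 to 0.84, a difference of -2.45. Pdzd7, a scaffold related to those that link microvilli and stereocilia, differed by -1.91, and Mep1a, the apical metalloprotease meprin, by -1.27 from a WT value of 7.63. The protocadherin Cdhr2, which ties microvilli to each other, differed by -0.86 and the cytolinker Plec by -0.80. Cdhr2 was, per kilobase, one of the 3 strongest listed genes in WT with 6.60, beside Nudt4 with 6.62 and Mt1 with 6.14. Myo15b, an unconventional myosin outside the list, differed by -1.13 and kept a value of 7.87 in KO.

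The cytoskeleton and adhesion lists followed the same direction with exceptions. Of 23 cytoskeleton and membrane traffic genes 4 were listed, 3 of them lower, and of 32 adhesion and basement membrane genes 2 were listed, both lower. Rhoc, a small GTPase that acts on actin, differed by -1.43 and Mapre3, a microtubule end-binding protein, by -1.35, while Mctp1 was higher. Pcdh17, a protocadherin, differed by -1.52 from a WT value of 6.00. Lamb3, a chain of the basement membrane protein laminin-332, differed by -0.87, and Lama3, another chain of it, was not listed but went from 3.85 to 1.47, a difference of -2.38. Pmp22, a membrane protein of cell junctions and myelin, also unlisted, went from 7.09 to 5.00. With Ifit1 and AY036118, these were the 4 unlisted genes lower by at least 1, of 26 (15.4%), and Pxdn, a peroxidase of the extracellular matrix, was the 1 unlisted gene higher by that much, with 1.30. AY036118 differed by -1.01, but 100% of its 50-base sequences also occur in other genes, chiefly CT010467.1, so its value is uncertain. With the pseudocount of 1 its difference became -0.72 and that of Pxdn 0.90, both under 1 in size. How these large unlisted differences compare with the spread between libraries was not tested.

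Of 18 phosphoinositide and nucleotide phosphate enzymes 3 had values, and all were lower, beside 44 of the 56 listed genes. The phospholipase C Plcd3 differed by -1.86, Nudt4, which hydrolyses inositol pyrophosphates, by -0.87, and the myotubularin relative Mtmr11 by -0.82. Nt5e, the ecto-nucleotidase that makes adenosine, differed by -1.27 and Gprc5a, an orphan receptor, by -1.04. Hist1h1c, a linker histone, differed by -0.73 and was with Smarcad1 the only listed member of 14 chromatin proteins. Erich4, a gene of unknown role, had the second largest fall, from 0.85 to -2.49, but it was the lowest in WT among the 44, and with a pseudocount of 1 its difference became -1.25. The uncharacterised gene 4930539E08Rik differed by -1.27.

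WT levels of the lower and the higher genes differed in their medians but overlapped in range, from 0.85 to 9.09 and from -3.51 to 6.46. The lower genes had a median log2 value of 5.96 in WT colonocytes and of 4.80 in KO, and the higher genes 2.23 and 4.29. Per kilobase of exon the WT medians were 3.78 and 0.32. The WT value was below 0 in 4 of the 12 higher genes, Khdc1a, AC151971.2, Slc6a19 and Lyz1, and in none of the 44 lower ones. In KO it was below 0 in 3 of the lower genes, Erich4, H2-Q1 and Rsad2. A gene near the lowest value has no room to be lower, so level and direction are not independent here. Within the lower genes, the 13 with a WT value under 5 had a median difference of -2.15 and all differed by at least 1.27, against a median of -0.94 in the other 31. This limit of 5 was set after the values were seen. A weakly expressed gene needs a larger difference to be listed by a test, so this contrast is in part set by the selection. Whether genes of low level respond more was not tested.

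**Figure D3:**
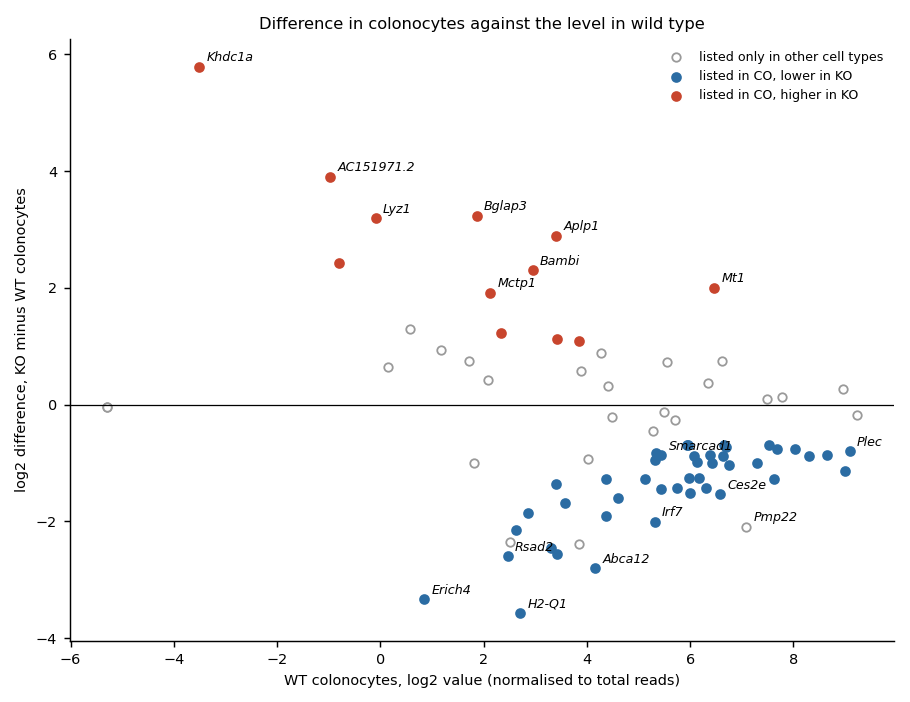
The log2 difference, KO minus WT colonocytes, is plotted against the authors' mean log2 value in WT colonocytes for all 82 genes, with listed genes in blue (44 lower) and red (12 higher) and unlisted genes as open circles. The lower genes crowd between 5 and 9 with small differences, and the largest differences of both signs stand at low WT values. Among listed genes this pattern is in part set by the selection.

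The same genes were followed in the small intestine. In AE 37 of the 43 lower genes with a value were also below 0, against 59.8% of all 82 genes, but the differences were small, with a median of -0.18, and only 1 of them, Cd74, was lower by at least 1, as were 3.66% of the 82. In TA 13 of 43 were below 0 and in ISC 12 of 44, against 30.5% and 26.8% of all 82, with medians of 0.14 and 0.27. In both crypt populations the share of the lower genes below 0 was close to that of all 82. Of the 12 higher genes, 7 of 10 with a value were above 0 in AE, 12 of 12 in TA and 11 of 12 in ISC, against 40.2%, 69.5% and 73.2% of all 82. Their medians were 0.82, 1.19 and 1.85. Since 6 of these 12 were chosen for listing in those cell types too, their agreement is in part set by the selection.

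**Figure D4:**
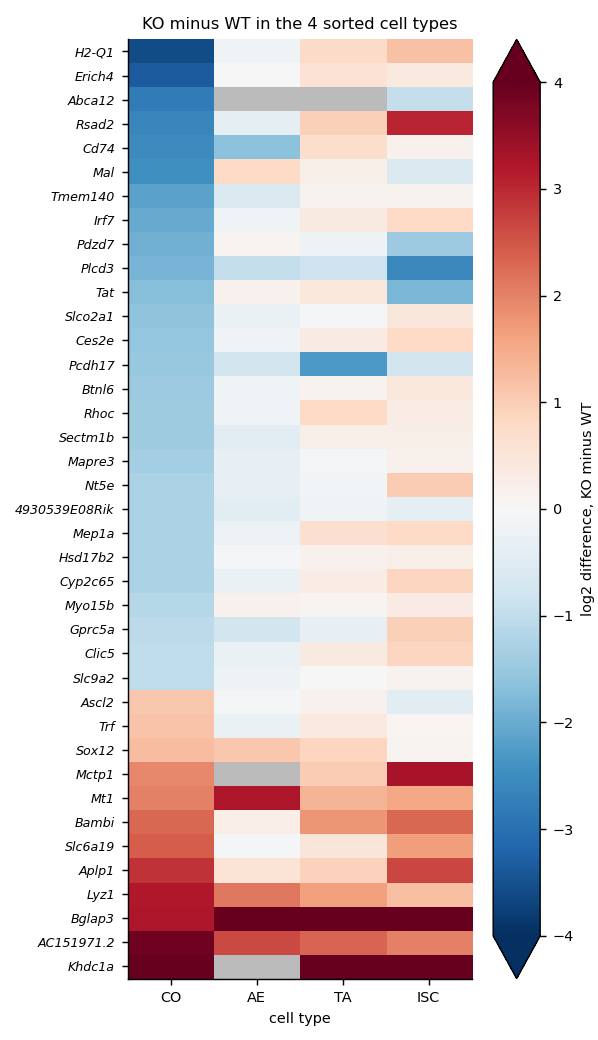
Rows are the 39 listed colonocyte genes with a difference of at least 1 and columns the 4 cell types, with colour for the log2 difference, KO minus WT, from blue (lower) to red (higher), cut at 4 on either side, and grey where both groups were at the lowest value. The blue colonocyte block fades in the other columns, while Mt1, Lyz1, Bglap3 and AC151971.2 are red in all 4.

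The listed genes were set against the WT gap between AE and ISC, a comparison chosen after the values were seen. That gap describes the small intestine and does not measure the maturity of colonocytes. In the small intestine of WT mice 36 of the 44 lower genes had an AE value at least 1 above the ISC value, as did 61% of all 82 genes, with a median gap of 2.87. For the 12 higher genes this held in 3, with a median of -0.56, and for the 26 unlisted genes in 11, with a median of 0.07. Nt5e had the widest gap among the lower genes, 7.61, followed by Rsad2 with 5.90 and H2-Q1 with 5.39. Ascl2 lay at the other end with -6.23. The 3 higher genes with such a gap were Slc6a19 with 6.49, Aplp1 with 4.88 and Bglap3 with 2.95. The groups are whole sorted populations, so fewer mature cells in a sort and less RNA per cell cannot be told apart, and the part that cell maturity played in the colonocyte differences was not tested.

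**Figure D5:**
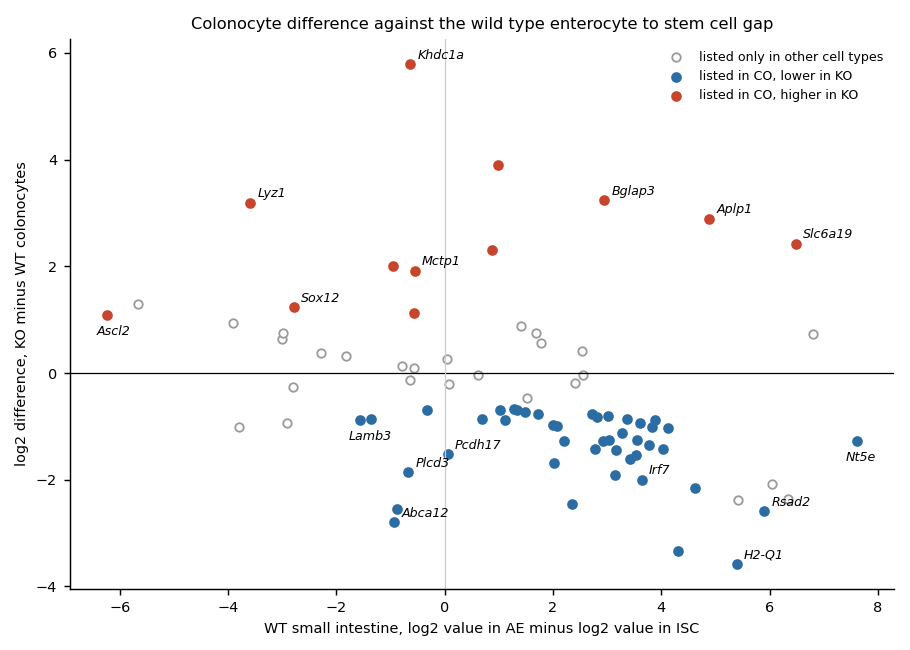
The log2 difference, KO minus WT colonocytes, is plotted against the WT gap between AE and ISC of the small intestine for the 82 genes, with listed genes in blue (lower) and red (higher). Of the blue points 36 of 44 lie at 1 or more on the x axis, while the red points spread from Ascl2 at -6.23 to Slc6a19 at 6.49.

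By annotation 55 of the 56 listed genes are protein coding. In GENCODE M21 on the same build, 9 share more than 10% of their 50-base sequences with other genes. Beside those named above, these are Mtmr11 with 29.4%, chiefly Gm17690, and Fzd5 with 16.4%, chiefly Gm38058. Of the 56, 21 overlap a gene on the opposite strand, among them Irf7 with Phrf1, Pdzd7 with Lzts2 and Plcd3 with Gm26668. The libraries were directional, but no source used here says that strand entered the counting, so reads of such pairs may be mixed.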

How the data were processed

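Per the labels, libraries were made by poly(A) selection from 10 ng of RNA of 75000 to 100000 sorted colonocytes, amplified with 15 PCR cycles and read as single 50 bp reads. The submitters' processing notes name Trim Galore 0.4.4, HISAT2 2.1.0, DESeq2 and the build GRCm38. The authors counted reads over merged transcript isoforms and deposited 4 tables, each of the genes under an FDR of 0.1 in 1 cell type. The deposited log2 values are the authors' means of 8 groups, normalised to total reads and not per length, and the order of averaging and log is not given in the sources used here. The FDR column holds the authors' own comparison and was not used beyond marking which genes were listed. No value per library was analysed, so no SD, test or interval could be given.

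One row was kept per gene over the 4 tables, and the difference KO CO minus WT CO was taken. A gene at the lowest value of both columns was left out of counts of direction in that cell type. Exon lengths, shared 50-base sequences and overlaps came from GENCODE M21, in which 50 of the 56 listed genes matched by coordinates and 6 by symbol. Promoters came from RefSeq, where 15 of the 56 had no entry. The motif searches were tested on planted sequences and the counting on simulated data.

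The members and the 22 gene lists were chosen with earlier results of these data known, including the study's supplementary gene tables, so they are not independent of the values. Of the listed genes 11 were on no list. The values of 1 listed gene are not reported here. The rule for named genes took Smarcad1, all listed colonocyte genes, unlisted genes with a difference of at least 1 whose KO or WT value reached 0, and members of the immune lists. Other genes on the lists were named after their values were seen. The search of all listed genes for motifs, the longer promoter window, the gap between AE and ISC, the WT limit of 5, the 10% limit on shared sequence and the limits for calling a value moved (0.1 on the log2 scale, 1.5 times for a count, 10 percentage points for a share) were also set after values had been seen. Python 3.11.15 with numpy 2.4.6, pandas 2.3.3 and matplotlib 3.10.9 was used.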

Additional observations from a re-analysis of the deposited data

How the results depend on the processing

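No paired analysis was possible because the tables hold 1 mean per group, and for the same reason no replicate could be left out. With a minimum difference of 1 the lower genes were 27 in place of 44 and their median WT value was 5.13 in place of 5.96, by the construction of that limit. A pseudocount of 1 on the linear scale took the median difference of the higher genes from 2.36 to 2.08 and their median WT value from 2.23 to 2.51, since it shrinks differences of low genes. With it 25 of the lower and all 12 of the higher genes still differed by at least 1. Among named genes it moved 27 of 65 by over 0.1, most of all Khdc1a, Erich4 and AC151971.2, whose difference became 2.52, and reversed none. Raising values to at least 0.1 moved only Khdc1a, to 5.60. Cd244 was left out of these settings, since both its groups were at the lowest value and its difference came to 0 once raised. With differences under 0.5 left out of the small intestinal cell types, the share of listed genes with the same sign was 66.7% in TA in place of 45.5%, and 58.6% in ISC in place of 41.1%. This limit left 18 of the 55 genes in TA and 29 of the 56 in ISC. The shares pool lower and higher genes, whose mix changed with the limit, so they do not measure the agreement of either direction alone. The other counts, medians and shares stayed within the limits set for them under the settings run. Without depth or values per library, no precision can be given.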

Other observations

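WT levels also differed between colon and small intestine for the same gene, an observation made after the values were seen. Pcdh17 had a log2 value of 6.00 in WT colonocytes and -4.40 in WT AE, and Abca12 had 4.17 and -5.17, so the values of both genes in AE were near the lowest of the column. Mal was 4.61 and Plcd3 2.90 above the AE value. H2-Q1 went the other way, with 2.71 in colonocytes and 7.26 in AE, as did Erich4 with 0.85 and 6.20. Among the lower genes 13 of 44 were above AE in WT colonocytes, and among the higher genes 8 of 12, against 16 of the 26 unlisted genes.

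Some genes listed only in the small intestine were strongly expressed in colonocytes and hardly differed there. B3galt5, a galactosyltransferase, had 9.23 in WT colonocytes and a difference of -0.18, against -1.40 in TA, where it was listed. Spink4, a goblet cell peptide, had 8.95 and a difference of 0.26.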
